A study of Mesocricetus auratus with 24 samples.

Results

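CpG pairs measured on both strands, the forward (F) cytosine at a base and the reverse (R) cytosine at the next base, were followed across 24 libraries of reduced representation bisulfite sequencing (RRBS), made from cultures of Syrian hamster fetal cells, 4 in each of 6 groups. A pair was kept when the F cytosine and the R cytosine were both listed in the same library in at least 3 of the 4 libraries of every group, with the mitochondrial sequence left out. Of 584900 pairs listed on both strands in at least 1 library, 2331 met this rule, on 289 scaffolds. Listing required at least 10 reads on each strand, and methylation values did not enter the choice.

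A CpG reads CG on either strand, so each CpG holds a cytosine on either strand. In mammals the maintenance methyltransferase DNMT1 copies the methyl group of the old strand onto the new strand after replication, and most CpGs are therefore methylated on both strands or on neither. A CpG that carries the mark on only the old strand is called hemimethylated, a state that is usually brief. RRBS cuts DNA at CCGG sites and sequences the fragment ends after bisulfite conversion, and it reads F and R cytosines from different molecules. Whether any strand difference described below is hemimethylation was not tested.

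The cells came from a cell transformation assay, in which fetal cells grow as colonies that are scored for normal or transformed morphology after exposure to a carcinogen. Benzo[a]pyrene (B[a]P), a carcinogen of combustion smoke, was given at 5 µg/mL, and the vehicle was 0.2% DMSO. The bypass group is a culture at day 94, after it had left senescence, and the senescent group is the same culture at day 48. That culture grew from a B[a]P-treated, morphologically transformed colony, was typed male, and came from an assay on pooled fetuses of both sexes. Transformed colonies and normal colonies were B[a]P-treated and were expanded for 19 to 25 days. B[a]P pools and vehicle pools held about 60 colonies each and were taken at day 9. Colonies and pools came from assays on a single male fetus. Only the vehicle pools had no B[a]P. Since the 8 bypass and senescent libraries share 1 culture, p-values between them measure the spread of repeat libraries, not of independent cultures. P-values between the colonies or between the pools measure the spread of those libraries, not of independent animals.

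The libraries listed between 809562 and 1484688 CpG positions, of which 18.9 to 31.996% had the opposite strand of the same CpG listed too. In each library 1646 to 2254 of the 2331 pairs were measured, with a median of 35 to 81 reads on F and 36 to 85 reads on R. Since the rule asks for listing on both strands in most libraries, it favours deeply read positions: the median was 51.8 ± 11.8 reads at the pairs, against 26.7 ± 5.10 reads at the other listed positions (mean ± SD over 24 libraries), which is a description of the choice and was not used as a result. Their mean level was 40.6 ± 2.44%, against 40.9 ± 4.79% at the other positions, and it was higher in 10 of 24 libraries (paired permutation test, two-sided, p = 0.7). By their mean over the 6 groups, 764 pairs lay under 5%, 215 between 5 and 20%, 834 between 20 and 80%, 365 between 80 and 95%, and 153 at 95% or above. Pairs often stood close together: 1006 had the next pair within 50 bases.

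Most pairs read alike on both strands: in each library 58.5 to 67.4% of the measured pairs differed by less than 10 points. Over the 49390 measurements of a pair in a library, 47.4% had exactly equal percentages, and of those 73.3% were 0 on both strands and 26.6% were 100% on both. Only 14 measurements were equal at a value in between. A difference of 30 percentage points or more was found in 19.8% of measurements, and 855 measurements (1.73%) had 0% on 1 strand against 100% on the other. The F and R values correlated across pairs with a Pearson r of 0.654 to 0.839 within a library, where neighbouring pairs share reads. Neither strand was higher in general: the mean of F minus R lay between -1.33 and 1.37 points in the 24 libraries.

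Counting error was small beside these differences. The root mean square difference between F and R was 23.1 to 35.7 points per library, whereas binomial sampling of the reads would give 3.42 to 6.38 points. The sources used here name no molecular identifiers, so the number of original molecules behind a read count is unknown and the binomial value covers counting error only.

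The share of pairs differing by 30 points or more ranged from 15.7 to 25.8% of the measured pairs in a library. It was 17.3, 19.6, 21.2 and 21.8% in the 4 bypass libraries, and 19.1, 22.9, 15.7 and 20.7% in the 4 senescent libraries. Transformed colonies had 15.7, 19.96, 16.2 and 19.5%, and normal colonies 15.9, 18.8, 19.8 and 16.8%. B[a]P pools had 19.2, 22.1, 24.7 and 20.9%, and vehicle pools 24.0, 25.8, 23.3 and 18.9%. The ranges overlapped in every comparison.

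**Figure D1:**
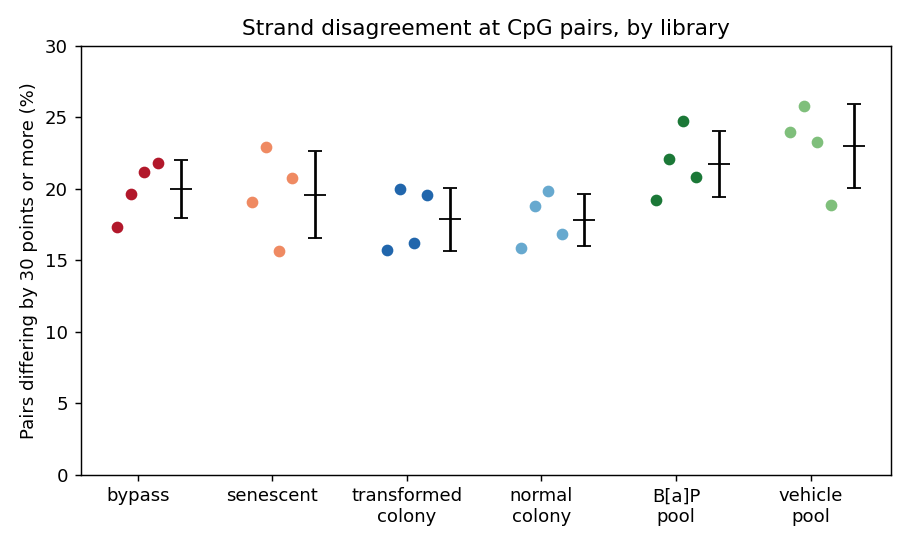
Percent of measured CpG pairs whose F and R strands differed by 30 points or more (y axis), for each library (points) of the 6 groups (x axis), with the group mean and SD in black (n = 4). Libraries of compared groups overlap, and the whole range is 15.7 to 25.8%.

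Over all pairs of the set, the compared groups did not differ in strand agreement by more than the spread between libraries. Other contrasts, such as vehicle pools against normal colonies, were not tested. The share averaged 19.99 ± 1.99% in bypass and 19.6 ± 3.06% in senescent libraries (SD; exact permutation test, two-sided, p = 0.857). It averaged 17.9 ± 2.203% in transformed and 17.8 ± 1.80% in normal colonies (exact permutation p = 0.943), and 21.7 ± 2.32% in B[a]P and 23.0 ± 2.95% in vehicle pools (exact permutation p = 0.514). With 4 libraries against 4 the smallest p this test can give is 0.0286, so a single measure cannot reach an adjusted p of 0.05 over the 12 tests made, whatever its difference. Over those 12 tests of 4 measures, which added the mean absolute difference, the difference beyond counting error and the mean level, the smallest Benjamini-Hochberg adjusted p was 0.686 in the exact permutation tests. That smallest value belonged to the mean level, 44.1 ± 0.705% in bypass and 42.5 ± 0.797% in senescent libraries. Among normal colonies, replicate 2 had a mean level of 30.5%, below the 38.9 to 41.4% of the other 3.

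Libraries with fewer listed pairs disagreed more between strands. Across the 24 libraries the share of pairs at 30 points or more fell with the number of CpG pairs a library listed (Pearson r = -0.785, permutation p = 2e-05; Spearman rho = -0.767, permutation p = 4e-05). After subtraction of each group's mean, r was -0.65 (permutation p = 0.0005) and rho was -0.627 (permutation p = 0.001). Without the 2 libraries farthest from the median the group-centred r was -0.529. Of the 3 relations computed, the third set the difference beyond counting error against the number of listed pairs, also group-centred, with r = -0.676 (permutation p = 0.0003). The Benjamini-Hochberg adjusted permutation p was 6e-05 for the first, 0.0005 for the second and 0.0004 for the third. Vehicle pools listed 79464 to 126527 pairs, the lowest range of the 6 groups, and transformed colonies 166763 to 211199. The part that listed pairs play in the group averages was not tested.

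Disagreement differed between classes of level. A difference of 30 points needs a mean of both strands between 15 and 85% in the library where it is seen. Pairs were classed by their mean level in the other 5 groups. Where a pair has a similar level in all groups this does not lift that limit. The order of the classes is therefore a description. In pairs under 5%, the group means of the share at 30 points or more were 1.36 to 5.14%, and in pairs of 5 to 20% they were 15.4 to 28.8%. In pairs of 20 to 80% the share was 35.3 to 42.3%, in pairs of 80 to 95% it was 12.8 to 25.9%, and at 95% or above 5.15 to 14.3%. Pairs at intermediate levels thus held the largest shares in all 6 groups.

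**Figure D2:**
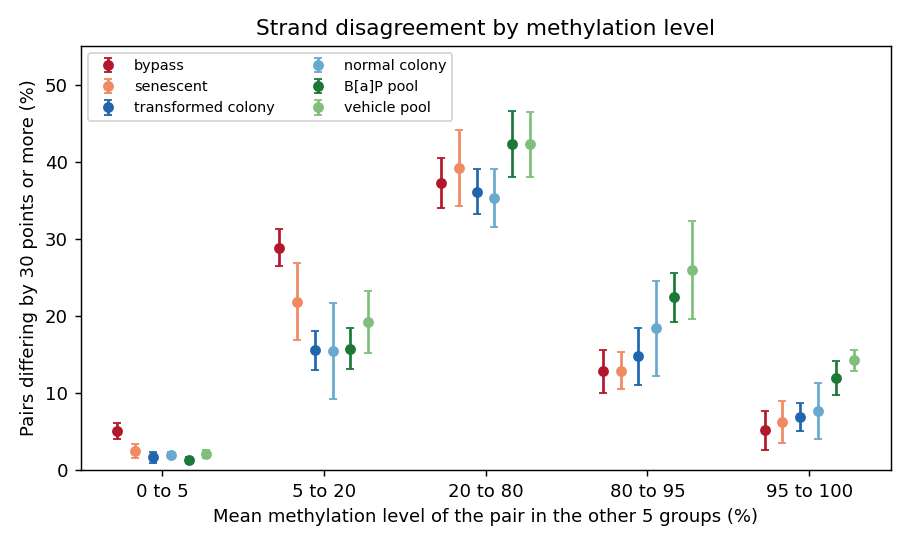
Percent of CpG pairs differing by 30 points or more between strands (y axis) by the level of the pair in the other 5 groups (x axis), as the mean and SD of 4 libraries per group. All 6 groups are highest at 20 to 80% (35.3 to 42.3%) and lowest under 5% (1.36 to 5.14%).

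The same comparisons were made in each level class, 15 tests in all, where a single test cannot reach an adjusted p of 0.05 even at the smallest exact permutation p of 0.0286; none passed. In pairs under 5%, classed by the 4 groups outside the comparison, 5.72 ± 1.06% differed by 30 points in bypass and 3.02 ± 1.18% in senescent libraries (exact permutation p = 0.0571, adjusted p = 0.429). At 95% or above, 14.1 ± 1.36% did so in pools with B[a]P and 16.7 ± 1.47% in those with vehicle (exact permutation p = 0.0571, adjusted p = 0.429). These were among the smallest adjusted p-values of the 15.

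Deeply read pairs disagreed less often. Among the 834 pairs of intermediate level, 48.9% of measurements with 10 to 19 reads on the less covered strand differed by 30 points or more. The share was 45.8% at 20 to 39 reads, 38.5% at 40 to 99 reads, 24.8% from 100 up to 300 reads and 15.7% at 300 reads or more. The deepest class came from 94 different pairs and the shallowest from 663, so the classes hold largely different CpGs and the part of depth itself was not tested. Binomial counting gives a root mean square difference of 8.59 points in the shallowest class, where 48.7 points were observed, and 2.08 points in the deepest, where 27.9 points were observed. Even the most deeply read pairs thus differed between strands by more than counting error.

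The F strand of a library was compared with the R strand of the same library and of the other libraries of its group. In bypass, the mean absolute difference was 15.1 points within a library and 15.3 points between libraries, and in senescent libraries it was 15.04 and 15.3 points. Repeat libraries of that culture thus disagreed between strands almost as much within a library as across libraries. In transformed colonies it was 14.1 points within a library and 17.2 points across libraries, and in normal colonies 14 and 16.9 points. The same strand compared across libraries differed by 11.8 points on F and 11.8 points on R in bypass, and by 14.3 and 14.4 points in transformed colonies. Within the bypass group, then, the same strand in another library was closer than the opposite strand in the same library. So it was in senescent libraries, by 12.1 points on F and 12.4 on R, against 15.04. The order also held in pools with B[a]P (13.8 and 14.4, against 16.7) and with vehicle (15.15 and 16.2, against 17.4). It was reversed in transformed colonies and in normal colonies, where the same strand differed by 15.2 points on F and 15.02 on R, against 14.

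Some pairs differed in every library of a group. In bypass, 118 pairs (5.06% of 2331) differed by 30 points or more in all measured libraries, in senescent 102 (4.38%), in transformed colonies 80 (3.43%), in normal colonies 66 (2.83%), and in the pools 117 with B[a]P (5.02%) and 107 with vehicle (4.59%). Among all pairs measured in at least 3 libraries of the same group, the shares were 4.18% in bypass, 4.24% in senescent, 2.45% in transformed colonies, 2.04% in normal colonies, 4.4% in pools with B[a]P and 4.36% in those with vehicle. Each share lay above that of all pairs, by under 1 percentage point.

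A difference of the same sign in all measured libraries was rarer. It was found at 76 pairs in bypass (F higher at 37, R higher at 39), 77 in senescent, 65 in transformed colonies, 45 in normal colonies, 83 in pools with B[a]P and 68 in those with vehicle, or 1.93 to 3.56% of the 2331. Among all pairs of the group the shares were 2.15% in bypass, 2.15% in senescent, 1.52% in transformed colonies, 1.07% in normal colonies, 2.06% in pools with B[a]P and 1.94% in those with vehicle. Of the same-sign pairs among the 2331, 90.8 to 100% had a level of 20 to 80% in the other 5 groups. The criterion itself needs a level of 15 to 85% in each library. A strand difference shared between groups therefore brings such a level with it, and this share is only a description. The pair just inside the threshold differed by 30 to 30.4 points at its smallest, and the pair just outside it by 29.6 to 29.96 points, depending on the group. The criterion was met in at least 1 group by 183 pairs, of which 100 met it in a single group and so allow no comparison of direction. Among the others, 0 had opposite signs in different groups.

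The criterion was met in all 6 groups by 18 pairs, on 13 scaffolds. F was higher at 8 of them and R at 10. The lower strand had a median of 0.723% methylated reads and lay under 5% at 15 of the 18 pairs, and the higher strand had means of 43.1 to 100%. Of the other pairs, 14 met the criterion in 5 groups, 11 in 4, 12 in 3, 28 in 2 and 100 in a single group. The files hold no sequence, and the sources used here name no genome build, so scaffold positions below are those of the deposited files and gene annotation was not used.

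**Figure D3:**
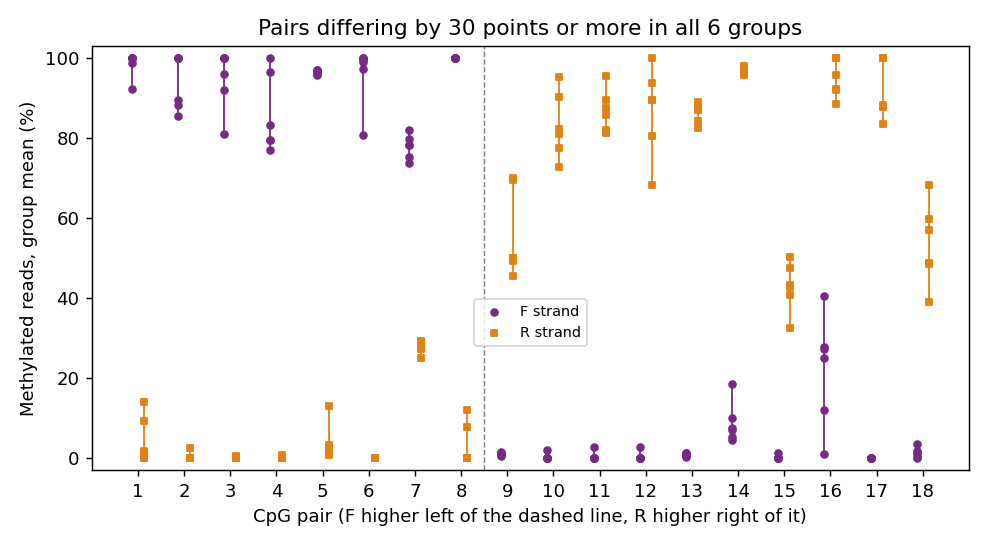
Percent methylated reads on F (circles) and R (squares) at each of the 18 CpG pairs that differed by 30 points or more with the same sign in all measured libraries of all 6 groups. Each symbol is the mean of a group, lines join the lowest and highest group, and at 15 pairs the lower strand lies under 5% on average.

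At scaffold KB708225.1, bases 4712574 (F) and 4712575 (R), F was fully methylated in all 20 libraries measured while R averaged 3.36%. The R strand read 0% in all 4 bypass libraries, against 0, 0, 30.8 and 0% in senescent libraries. It was 0% in the 3 measured transformed colonies, against 0, 26.1 and 10.3% in the 3 measured normal colonies, and 0% in the 3 measured libraries of each pool group. Reads were 10 to 136 on F and 12 to 112 on R. The strands did not overlap in any library.

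The pair at KB708164.1, bases 15156941 and 15156942, averaged 96.6% on F and 0% on R over 21 libraries. Its F strand read 100% in the 3 measured bypass libraries, against 73.8, 100 and 68.3% in the 3 measured senescent libraries. Transformed colonies had 100, 98.1, 100 and 100% on F, and normal colonies 100, 98.5 and 93.0%. B[a]P pools had 95.8, 100, 100 and 100%, against 100% in all 4 vehicle pools. No library had a methylated read on R, at 11 to 51 reads, which allows a share of up to 5.88% in the deepest library and 27.3% in the shallowest (3 counts of the reads, counting error only).

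At KB708141.1, bases 15743320 and 15743321, F averaged 94.6% and R 0.154% over 23 libraries. F was 89.5, 100, 100 and 94.7% in bypass, against 93.5, 100, 83.3 and 91.4% in senescent libraries. It was 100% in all 4 transformed colonies, against 76.6, 100, 47.4 and 100% in normal colonies. The lowest F value, 47.4% in a normal colony with 78 reads, still stood beside 0% of 60 reads on R.

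Among pairs with R higher, the pair at KB708362.1, bases 993173 and 993174, read 0% on F in all 21 measured libraries and 93.6% on R on average. R was 100% in all 4 bypass and all 4 senescent libraries. It was 100, 100 and 64.5% in transformed colonies, against 100% in the 3 measured normal colonies, and 100, 100, 100 and 50.8% in B[a]P pools, against 100, 50.7 and 100% in vehicle pools. Reads were 11 to 49 on F and 11 to 86 on R.

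The pair at KB708189.1, bases 9381912 and 9381913, was deeply read, with 14 to 532 reads on F and 338 to 3740 on R. R was 92.8 to 99.6% in the 23 measured libraries. F varied between libraries of a group: 7.75, 0.465, 9.96 and 0% in bypass, against 7.46, 0, 14.6 and 6.64% in senescent libraries. F was 31.5, 37.3, 0 and 4.92% in B[a]P pools, against 5.12, 0, 25.3 and 0% in vehicle pools. The gap between strands was never under 61.0 points.

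At KB708136.1, bases 21148790 and 21148791, F averaged 0.408% and R 86.8% over 20 libraries. R was 67.5, 76.2 and 100% in bypass, against 100, 83.8, 68.4 and 76.2% in senescent libraries. It was 58.1, 100, 100 and 100% in B[a]P pools, against 100, 100 and 86.2% in vehicle pools. The only methylated reads on F were in a normal colony, 8.16% of 98 reads.

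Of the 18 pairs, 11 had another listed CpG 74 or 75 bases away on a single side. It lay downstream at the 6 of them with F higher and upstream at the 5 with R higher. The remaining pairs, 2 with F higher and 5 with R higher, had no listed CpG at that distance. This distance was noticed in these data and not chosen beforehand. Of all 2331 pairs, 240 had a listed CpG 74 or 75 bases downstream only, 193 upstream only and 28 on both sides, leaving 1870 with none.

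In 4 places the partner at that distance was itself among the 18 and its strands were reversed. At KB708134.1 the pair at base 22038929 averaged 98.6 ± 5.37% on F and 4.34 ± 10.3% on R, and the pair 75 bases downstream 0.316 ± 1.38% on F and 83.8 ± 22.4% on R (SD over 19 libraries). At KB708136.1 the pair at 21148716 averaged 93.4 ± 14.6% on F and 0.521 ± 2.33% on R, and the pair 74 bases downstream, described above, was the reverse. At KB708147.1 the pair at 11220042 averaged 86.0 ± 15.7% on F and 0.129 ± 0.590% on R, against 0.544 ± 2.49% and 88.0 ± 18.1% at the pair 75 bases downstream. In each case the outer strands of the stretch, F on the left and R on the right, carried the methylated reads.

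The fourth such place was deeply read. At KB708154.1 the pair at 8909206, with a median of 1286 reads on F and 1142 on R, averaged 96.5 ± 1.93% on F and 3.88 ± 9.44% on R in all 24 libraries. The pair at 8909281, 75 bases downstream, averaged 0.901 ± 0.754% on F and 86.3 ± 4.03% on R, with a median of 1303 reads on F and 1096 on R. The pattern was thus also found at a deeply read place.

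The 18 also held 5 pairs outside the named and coupled ones, and none of them had a CpG 74 or 75 bases away. At KB708189.1 the pair at base 9381879 averaged 77.9% on F and 27.8% on R, with a median of 1494 reads on F and 2017 on R. It lay 33 bases before the pair at 9381912, where R was the higher strand. At the other 4, R was higher. The pair at KB708128.1, base 57635, averaged 1.11% on F and 55.7% on R, with a median of 1114 and 7858 reads. That at KB708206.1, base 9500496, averaged 0.217% on F and 43.1% on R. At KB708474.1, base 91877, the averages were 1.42% on F and 53.6% on R, so these 3 pairs had an R strand near the middle of the range and not fully methylated. At KB708314.1, base 2728738, they were 23.7% on F and 94.8% on R.

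The mirrored arrangement was counted over all couples of pairs up to 150 bases apart. Among the 2331 pairs, 8 to 13 couples per group had F higher on the left and R higher on the right with the same sign in all measured libraries, and 7 to 11 of these stood 74 or 75 bases apart (84.6 to 91.7%). The opposite arrangement was found 0 or 1 times per group. Over all pairs of a group, 74 to 289 couples had the mirrored arrangement, and 92.6 to 97.1% of them stood 74 or 75 bases apart. Of all couples at that distance 7.71 to 18.9% were mirrored, against 0.00288 to 0.0175% of couples at other distances.

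**Figure D4:**
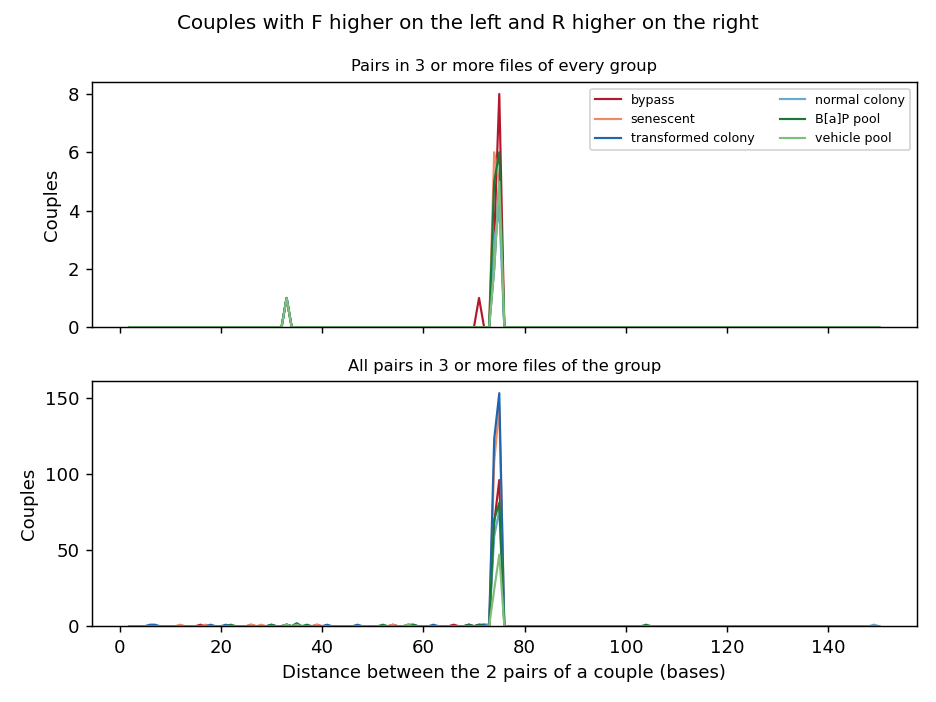
Number of couples (y axis) with F higher at the left pair and R higher at the right pair, in all measured libraries of a group, by the distance between the pairs in bases (x axis), for pairs in 3 or more libraries of every group (top) and all pairs of the group (bottom). Nearly all couples stand at 74 or 75 bases in all 6 groups, 7 to 11 per group in the top panel.

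The distance split the pairs by the direction of their strand difference. In the 240 pairs with a CpG 74 or 75 bases downstream only, F was above R by 7.54 to 11.2 points on average in the 6 groups, and it was above R in 24 of 24 libraries. In the 193 pairs with one upstream only, F minus R was -14.1 to -10.1 points, and F was above R in 0 of 24 libraries. In the 1870 pairs with none, it was -0.475 to 0.399 points. The distance was noticed in these same pairs and all libraries read the same set, so these counts are a description. Disagreement was also found without such a neighbour: 21.2 to 25.8% of the 240 pairs and 23.0 to 28.8% of the 193 differed by 30 points or more, against 16.8 to 22.5% of the 1870. The 28 pairs with a CpG at that distance on both sides had the lowest shares, 7.91 to 13.5%. A same-sign difference in all measured libraries of a group was found at 5.42 to 10% of the 240 and 6.74 to 11.4% of the 193, against 1.02 to 2.03% of the 1870, and at 0 of the 28.

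A quasi-binomial model over all pairs of a group tested F against R with the library as a block, at pairs with a pooled level of 5 to 95%. A pair was called at an adjusted p under 0.05 and a difference of 10 points or more. In bypass 37 of 1092 tested pairs of the set were called (1.27% of all tested pairs were called), in senescent 42 of 1134 (1.3%), in transformed colonies 45 of 1178 (1.74%), in pools with B[a]P 24 of 1217 (0.684%) and in those with vehicle 2 of 1205 (0.0229%). In normal colonies 0 of 1151 were called (0% of all tested pairs), where 193 had an unadjusted p under 0.05. The smallest quasi-binomial adjusted p there was 0.051, just above the cutoff. There limma on percentage points also called 0, while the same model called 14 at 20 reads or more per strand and 21 with a spread prior set by coverage too. Over all tested pairs, 20.9% had an unadjusted p under 0.05 in normal colonies, and 20.5 to 22.5% in the other groups. The numbers of calls therefore do not rank the groups by strand difference. Calls were close to evenly split between F higher and R higher, with 21 and 16 in bypass, and 22 and 23 in transformed colonies. Of the called pairs over the whole table, 69.2% in bypass, 77.5% in senescent, 81.7% in transformed colonies and 79.4% in B[a]P pools had a CpG 74 or 75 bases away on the side described above, against 12.3 to 15.3% of the pairs tested in those groups. Shares were lower among called pairs of the set: 19 of 37 in bypass, 20 of 42 in senescent, 22 of 45 in transformed colonies and 13 of 24 in B[a]P pools. In vehicle pools it was 1 of 2. Leaving out any single library brought the number of pairs of the set called to 0 in every group with calls. Fewer libraries leave fewer degrees of freedom, so this cannot tell whether the calls rest on single libraries. With limma, 10 pairs of the set were called in bypass, 3 in senescent, 17 in transformed colonies and 0 in either kind of pool.

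No pair of the set passed the test of a strand difference that changed between compared groups. The lack of calls does not show that strand differences were alike in those groups. In the same model with a strand-by-group term, 0 of 1165 tested pairs were called for bypass against senescent (0% of all tested pairs), 0 of 1226 for transformed against normal colonies (0.00977%), and 0 of 1286 for B[a]P against vehicle pools (0%). Unadjusted p-values under 0.05 numbered 113, 86 and 113, and limma called 0 in all of them. The pair with the smallest p for bypass and senescent was at KB708208.1, base 10453559. There F minus R was 34.2, 44.2, 18.9 and 19.8 points in bypass, against -46.3, -33.3, -25.2 and -38.9 points in senescent libraries. The groups did not overlap, but the adjusted p over the table was 0.3 in the quasi-binomial test.

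For B[a]P and vehicle pools the smallest p was at KB708286.1, base 3703046. F minus R was 0, 58.1 and 57.1 points in the 3 measured B[a]P pools, against -87.2, -6.31, 0 and -16.1 points in vehicle pools, with an adjusted p of 0.297 in the quasi-binomial test. For transformed and normal colonies it was at KB708131.1, base 30327878, where F minus R was 41.0, 45.5, 50.4 and 99.4 points in transformed colonies, against 33.6, -39.1 and 3.7 points in normal colonies. Its adjusted p was 0.311 in the quasi-binomial test. The pools overlapped at the first of these pairs, and the colonies did not overlap at the second, where the nearest values were 41.0 points in transformed and 33.6 points in normal colonies.

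Levels over both strands changed between bypass and senescent libraries at single pairs. Of 1291 tested pairs of the set, 71 were called (5.5%, near the 4.87% of all tested pairs): 56 were higher in bypass (3.57% of all tested were called higher) and 15 lower (1.3%). The median change was 2.01 points over the tested pairs of the set and 3.59 points over all tested pairs. For transformed against normal colonies 0 of 1349 pairs were called (0%), where 132 had an unadjusted p under 0.05. For B[a]P against vehicle pools 0 of 1384 were called (0%), where 96 did, and limma called 0 in both. Between the colonies, 3 pairs were called without transformed colony replicate 4, 1 without normal colony replicate 1, and 0 without any of the other libraries. The 71 calls depended on the settings: leaving out any library brought them to 13 to 46, with the lowest number without bypass replicate 2, limma called 17, and 27 were called with no filter on level and 31 at 20 reads or more per strand.

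**Figure D5:**
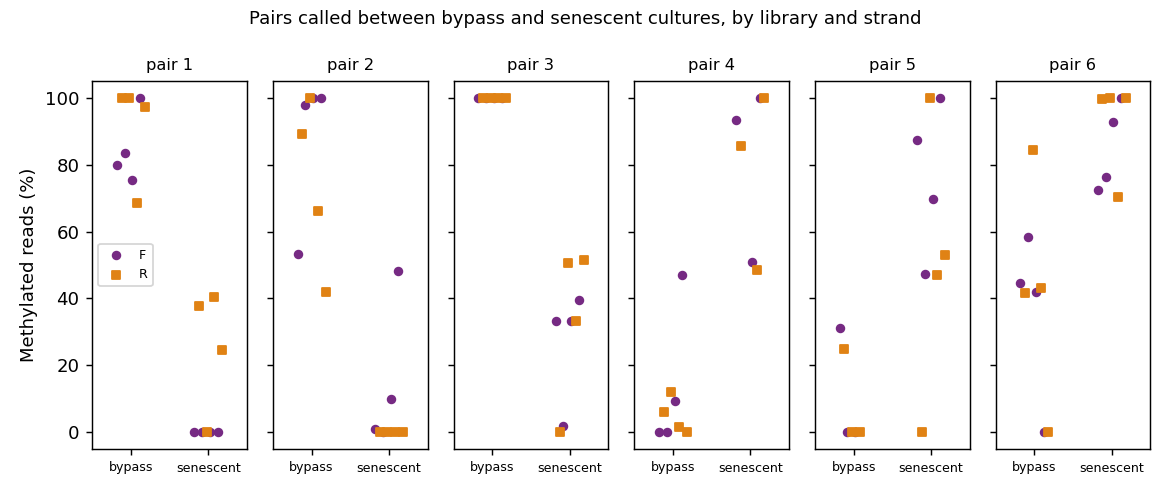
Percent methylated reads on F (circles) and R (squares) in each bypass and senescent library at 6 CpG pairs called for level; pairs 1 to 3 are higher and pairs 4 to 6 lower in bypass, in the order described in the text. At pair 3 all bypass values are 100% on both strands, and the highest senescent value is 51.5%.

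At KB708162.1, bases 14218812 and 14218813, F was 80, 83.5, 75.3 and 100% in bypass and 0% in all 4 senescent libraries, while R was 100, 100, 68.4 and 97.3% in bypass and 37.6, 0, 40.3 and 24.5% in senescent libraries. The mean of both strands was 88.1 ± 11.4% in bypass and 12.8 ± 9.20% in senescent libraries, a difference of 75.3 points (quasi-binomial adjusted p = 0.00257). This pair, like the next ones, was named because the levels of the groups did not overlap, and here neither strand overlapped. In the other groups the pair was variable: F was 0, 100, 0 and 0% in transformed colonies, against 0, 0 and 20.5% in the 3 measured normal colonies.

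The pair at KB708224.1, bases 8560267 and 8560268, had F at 53.4, 97.7, 100 and 100% in bypass, against 1.08, 0, 9.85 and 48.1% in senescent libraries. R was 89.2, 100, 66.2 and 41.96% in bypass, against 0% in all 4 senescent libraries. The level was 81.1 ± 13.1% in bypass and 7.38 ± 11.3% in senescent libraries (quasi-binomial adjusted p = 0.00342). Neither strand overlapped between the groups.

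At KB708128.1, bases 18180936 and 18180937, both strands were 100% in all 4 bypass libraries. In senescent libraries F was 33.3, 1.69, 33.3 and 39.4% and R was 0, 50.6, 33.3 and 51.5%. The level was 100% in bypass and 30.4 ± 12.1% in senescent libraries (quasi-binomial adjusted p = 0.00627). It was 5.02 ± 6.18% in transformed colonies, against 20.5 ± 32.4% in normal colonies.

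Of the pairs lower in bypass, that at KB708141.1, bases 23619179 and 23619180, had a level of 9.49 ± 9.47% in bypass and 79.7 ± 26.5% in the 3 measured senescent libraries (quasi-binomial adjusted p = 0.0303). F was 0, 0, 9.38 and 47.1% in bypass, against 93.3, 50.9 and 100% in senescent libraries, and R was 5.88, 11.9, 1.64 and 0% in bypass, against 85.5, 48.6 and 100%. The quasi-binomial adjusted p rose above 0.05, up to 0.102, in 5 of the fits that left out a library: senescent replicate 1 or 4, or bypass replicate 1, 2 or 3.

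At KB708257.1, bases 3135483 and 3135484, F was 31.3, 0 and 0% in the 3 measured bypass libraries, against 87.5, 47.4, 69.6 and 100% in senescent libraries. R was 25, 0 and 0% in bypass, against 0, 100, 46.9 and 52.9% in senescent libraries, so R overlapped and F did not. The level was 9.38 ± 16.2% in bypass and 63.1 ± 15.2% in senescent libraries (quasi-binomial adjusted p = 0.0293), and 6 of the fits that left out a library lost the call, with an adjusted p up to 0.119: any of the senescent libraries, or bypass replicate 2 or 3.

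At KB708224.1, bases 3954113 and 3954114, F was 44.7, 58.5, 41.9 and 0% in bypass, against 72.5, 76.4, 92.8 and 100% in senescent libraries. R was 41.7, 84.4, 43.2 and 0% in bypass, against 99.6, 100, 70.4 and 100% in senescent libraries, so R overlapped and F did not. The level was 39.3 ± 29.5% in bypass and 89.0 ± 7.86% in senescent libraries (quasi-binomial adjusted p = 0.0168), and the call was lost without senescent replicate 1 (adjusted p = 0.0752) and without senescent replicate 3 (adjusted p = 0.0647). With limma on percentage points all 3 of the pairs lower in bypass lost the call, with adjusted p-values of 0.0501 at KB708141.1, 0.0705 at KB708257.1 and 0.124 at KB708224.1. With no filter on level the quasi-binomial adjusted p was 0.0596 at KB708141.1 and 0.0557 at KB708257.1, and the call at KB708224.1 held.

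Each strand was also used as a separate reading of the same libraries. From F reads alone, 6 pairs of the set were called between bypass and senescent libraries (0.419% of all tested pairs), and from R reads alone 11 (0.746%). Of the 5 pairs called higher on F, 4 were higher on R, with a median change of 38.7 points on R beside 50.8 points on F. Of the 9 called higher on R, 7 were higher on F, with a median of 31.7 points on F beside 60.2 points on R. Between transformed and normal colonies, 0 pairs of the set were called from either strand alone (0% of all tested pairs from F and 0.0224% from R), and between B[a]P and vehicle pools 0 as well (0% from either), where 117 to 143 had an unadjusted p under 0.05. The pair called lower on F had a change of -51.7 points on F and 0 on R, and the 2 called lower on R had medians of -40.9 points on R and -42.4 points on F. The values on the strand that made a call are those it was chosen by, so the sizes on both strands are given as a description.

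No pair was called for level between the colonies or between the pools. At KB708165.1, bases 1530295 and 1530296, F was 57.4, 64.4 and 52.9% in the 3 measured transformed colonies, against 0% in all 4 normal colonies, while R was 0, 60.9 and 0%, against 0% in all normal colonies. F separated the groups and R did not, and the quasi-binomial adjusted p for the level was 0.109. At KB708169.1, bases 9844785 and 9844786, F was 7.41, 0 and 28.3% in the 3 measured B[a]P pools, against 82.7, 99.1 and 100% in the 3 measured vehicle pools, while R was 32.7, 100 and 100%, against 98.0, 100 and 100%. Its quasi-binomial adjusted p for the level was 0.196.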

How the data were processed

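Trim Galore 0.5.0, Bowtie2, Bismark 0.22.1, methylKit 1.10.0, bcl2fastq 2.20.0.42 and R 3.6.1 are listed per the submitters' processing notes, which state no role for them. The sources used here name no genome build. Per the file headers, the authors' tables list read coverage as a count for each CpG position and strand, and the percent of reads with C (methylated) or T. The deposited counts are not normalised and start at 10 reads, so a strand with fewer reads is missing. The sources used here do not say whether PCR copies were removed.

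Methylated reads were taken as coverage times percent over 100, rounded. The level of a pair is the mean of its F and R percentages. Libraries were compared with exact permutation tests over 70 assignments. Pairs were tested over the whole table with quasi-binomial logistic models, with dispersions moderated within 10 classes of level by a port of limma's squeezeVar that was tested on simulated data, and with Benjamini-Hochberg adjustment; a fit uses the libraries in which a pair is listed. Work was done in Python 3.11.15 with numpy 2.4.6 and scipy 1.17.1, and coordinates are those of the files.

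The members, lists and tests were chosen with earlier results of these data known. Pairs were named by rule: the 3 largest mean differences each way among pairs differing in all 6 groups, the 3 called pairs with the largest non-overlapping change in level each way, or the smallest p where none was called. The distance of 74 or 75 bases, the coverage classes, the comparison across libraries and the relation to listed pairs were chosen after seeing the data. Same-numbered samples did not deviate together (correlations of -0.0722 to 0.0412 for the strand difference and -0.0706 to 0.0467 for the level), and no libraries of a group were copies of each other by a chi-square comparison of 36 library pairs.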

Additional observations from a re-analysis of the deposited data

How the results depend on the processing

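The design allows a single comparison of strand agreement no adjusted p under 0.05, so the failure of all to pass under the settings tried says nothing of stability, and the small differences changed sign under several. The bypass minus senescent difference in mean absolute strand difference, 0.0921 points, was -0.0744 with the top 0.1% of coverage left out, -0.297 with each strand thinned to 10 reads and -0.178 among the 1870 pairs with no CpG 74 or 75 bases away. The difference in the share at 30 points or more was -0.501 when thinned. For transformed minus normal colonies, at 20 reads or more per strand the mean absolute difference was -0.255, the share -1.45 and the difference beyond counting error 0.0825. Without pairs at 74 or 75 bases the first 2 of these were -0.0714 and -0.169, and the third was 0.567 in the 294 pairs listed in all 24 libraries and 0.0753 when thinned. Of the level classes, with classes set by the compared groups themselves, bypass minus senescent at 20 to 80% was 2.28 points, transformed minus normal colonies at 95% or above -0.067, and B[a]P minus vehicle pools at 20 to 80% -0.92. When thinned, transformed minus normal colonies was 1.54 at 5 to 20% and -1.53 at 95% or above.

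Leaving out 1 library at a time moved the bypass minus senescent differences between -0.525 and 0.812 points (mean absolute difference), -0.91 and 1.51 (share) and -0.605 and 2.35 (beyond counting error). It moved transformed minus normal colonies between -0.368 and 0.521, -0.668 and 0.747, and -1.21 and 0.856. B[a]P minus vehicle pools moved between -1.53 and 0.0109 for the mean absolute difference and -3.08 and 0.274 beyond counting error. Pairs called within a group fell to 0 in all 5 groups with calls, and fewer libraries leave fewer degrees of freedom. Level calls between bypass and senescent libraries fell to 13 to 46, with 69.2 to 82.6% of them higher in bypass, and those between the colonies were 0 to 3. The share of pairs with a same-sign difference in all measured libraries, where fewer libraries must meet it, became 4.42 to 5.41% in bypass, 2.83 to 3.26% in normal colonies, and in the pools 4.55 to 5.62% with B[a]P and 4.38 to 5.41% with vehicle.

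With limma, pairs called within a group were 10 in bypass, 3 in senescent, 17 in transformed colonies and 0 in either kind of pool, and 17 were called for level. At 20 reads or more per strand they were 67 in bypass, 14 in normal colonies, and 15 with B[a]P and 10 with vehicle in the pools, and 31 for level. With the top 0.1% of coverage left out they were 29 in transformed colonies and 0 in vehicle pools. The dispersion prior by level and coverage, chosen after seeing the data, called 21 in normal colonies. Without the filter on level, 27 were called for level. The cause of these moves was not tested. With the replicate block, 0 pairs were called for level between bypass and senescent libraries; same-numbered libraries did not deviate together, so the numbers name samples only, and the block changed no other count.

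At 20 points the same-sign share was 4.38% for transformed colonies and 2.92% for normal ones. At 50 points it was 1.76% in bypass, 1.59% in senescent, 1.29% in transformed and 0.901% in normal colonies, 1.67% in B[a]P and 1.29% in vehicle pools, and 0.429% of pairs met it in all 6 groups, against 0.772% at 30 points. At 20 reads per strand it was 5.39% in bypass and 1.35% in all 6 groups. In the 294 pairs it was 5.78% in bypass, 5.78% in senescent, 4.76% in transformed colonies, 6.46% in B[a]P and 4.42% in vehicle pools, and 1.70% in all 6 groups. Without pairs at 74 or 75 bases it was 1.76% in bypass, 1.93% in senescent, 1.60% in transformed and 1.02% in normal colonies, 2.03% in B[a]P and 1.60% in vehicle pools, and 0.374% in all 6 groups. A pair enters only where both strands reach 10 reads, which favours deeply read CpGs, and the number of molecules behind the reads is unknown.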

Other observations

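Further pairs chosen by the naming rule show how far the strands of a pair, and the libraries of a group, could differ. At KB708242.1, base 1759427, the F strand was 34.1, 100, 67.7 and 100% in bypass, against 0% in the 3 measured senescent libraries, while R was 54.1, 97.1, 75.9 and 100% in bypass, against 6.67, 21.3 and 77.6%. Its strand-by-group adjusted p was 0.326 in the quasi-binomial test. At KB708214.1, base 3431349, both strands were 100% in the 3 measured transformed colonies, against 0, 47.6 and 55.6% on F and 73.6, 100 and 61.1% on R in normal colonies. Its quasi-binomial adjusted p for the level was 0.153. At KB708213.1, base 3780392, F was 64.1, 100, 0 and 100% in B[a]P pools, against 100% in the 3 measured vehicle pools, and R was 71.7, 41.2, 100 and 59.1%, against 100, 98.1 and 100%. Its quasi-binomial adjusted p for the level was 0.196.

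The other named pairs differed in depth and in their spread between libraries. At KB708165.1, base 7258424, R had 4578 to 13100 reads and F 500 to 1397, and F was above R in all 24 libraries, by 14.9 points on average over the groups. At KB708166.1, base 9670834, F was 96.5, 94.2 and 96.6% in transformed colonies, against 95.8, 88.2, 89.2 and 89.6% in normal colonies, with 3469 to 8492 reads. Its quasi-binomial adjusted p for the level between the colonies was 0.0962. R was 100% in 17 of its 20 libraries, where F lay between 88.1 and 97.3% in all 20, and R read 0% of 12 reads in 1 B[a]P pool. At KB708142.1, base 2213478, F was 89.3% of 3433 reads and R 0.573% of 349 reads in transformed colony replicate 4, while R was 87.5, 98.6 and 100% in the other 3. At KB708180.1, base 6660932, F was 100% in the 3 measured B[a]P pools, against 63.5, 100, 74.5 and 85.9% in vehicle pools, at 12 to 123 reads over all its libraries, with a strand-by-group adjusted p of 0.344 in the quasi-binomial test.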
